A study of Mus musculus with 188 samples.

Results

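The AP-1 and immediate early genes described here are 10 named genes, Fos, Fosb, Fosl2, Jun, Junb, Jund, Atf3, Egr1, Ier2 and Dusp1, out of 49585 gene rows. They were chosen by symbol, and every one of the 10 had a row and at least 1 read. They were measured in single cells of mouse tail epidermis, taken at postnatal day 20 from Lrig1-CreERT2/RosaYFP mice, which carry an inducible Cre at the Lrig1 locus and a yellow fluorescent reporter. The sort kept living cells that were Cd34-, Itga6+ and YFP-, which aims at basal keratinocytes of the interfollicular epidermis, the sheet of skin between hair follicles. Each cell was lysed in its own well and made into a Smart-seq2 library, a full-length cDNA method. All cells formed 1 group, 94 on each of 2 plates, and no label names an animal or tells a treated from an untreated cell. The cells were therefore 1 sample, no test between groups was possible, and all relations across cells are given as descriptions without p-values.

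AP-1 is a transcription factor made of pairs of basic leucine zipper proteins, mostly a Fos family member with a Jun family member. Immediate early genes such as Fos, Jun, Egr1 and Ier2 are transcribed within minutes of growth factor signals, wounding or stress, from factors already present in the cell, and their RNAs are short-lived. They are also known to be switched on while tissues are taken apart into single cells. In epidermis, AP-1 members are known for roles in proliferation, in differentiation and in wound and stress responses. Per the labels' protocols, the tail skin stood overnight in cold trypsin and the cells were stained on ice before sorting. No cell that had not been dissociated was analysed here, so a response to dissociation and the state of the cells in the skin cannot be told apart.

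Reads per cell over genes were 79868 to 1093805, with a median of 369991, and 5821 to 8720 genes had a read. Values are CPM, a cell's reads of a gene divided by its reads over all genes and put on the usual CPM scale; 1 read was worth 2.70 CPM at the median depth and 12.5 CPM in the shallowest cell. The 14 basal keratinocyte markers were all present, and at least 3 of them reached 10 CPM in every cell of both plates. In no cell did 3 of the 5 markers of T cells, Langerhans cells, melanocytes, fibroblasts, endothelial cells or Merkel cells reach that level. Their summed levels averaged 0.00625 CPM for T cells, 20.4 CPM for Langerhans cells, 11.5 CPM for melanocytes, 26.03 CPM for fibroblasts, 1.91 CPM for endothelial cells and 0.0385 CPM for Merkel cells. Of the 5 defining markers, those listed at 0 throughout numbered 4 for T cells, 1 for Langerhans cells, 0 for melanocytes, 1 for fibroblasts, 3 for endothelial cells and 3 for Merkel cells. Reads also strayed between wells that share a lettered row on either plate, at an estimated 29.2 per 10000 source reads, between wells of a column, at 11.0, and between other wells, at 3.45. The expected stray share of a cell's reads was 4.54% to 72%, with a median of 13.9%, so the share of cells with each of the 10 genes is also given for reads above 3 times the expected stray reads. Falling short of that limit does not show that a gene was absent. Krt5 and Krt14, at 10 CPM in 100% of cells, passed it in 84.6% and 80.9%.

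Promoters are shown for Fos, Jun, Junb and Dusp1, since Fos, Jun and Junb were among the genes that varied together most and Dusp1 holds the full cyclic AMP response element (CRE). The RefSeq table on GRCm38.p6 matched 8 of the 10 genes, all but Egr1 and Ier2. Each sequence runs 5′ to 3′ on the gene's strand, from 250 bases before the annotated start to 50 after it. The positions are chr12:85473640-85473939 on the plus strand for Fos, chr4:95052173-95052472 on the minus strand for Jun, chr8:84978699-84978998 on the minus strand for Junb and chr17:26508423-26508722 on the minus strand for Dusp1. Capitals mark the letters TGACG (the CRE core), TGACGTCA (the full CRE, which contains the core), TGACATCA (the AP-1-like element of Jun) and TATAAA (the TATA box).
Fos: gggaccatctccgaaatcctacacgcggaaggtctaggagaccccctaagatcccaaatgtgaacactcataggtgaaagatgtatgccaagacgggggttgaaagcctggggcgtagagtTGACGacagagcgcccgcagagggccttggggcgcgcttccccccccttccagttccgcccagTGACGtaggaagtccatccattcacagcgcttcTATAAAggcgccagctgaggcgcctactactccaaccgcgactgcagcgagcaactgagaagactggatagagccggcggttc
Jun: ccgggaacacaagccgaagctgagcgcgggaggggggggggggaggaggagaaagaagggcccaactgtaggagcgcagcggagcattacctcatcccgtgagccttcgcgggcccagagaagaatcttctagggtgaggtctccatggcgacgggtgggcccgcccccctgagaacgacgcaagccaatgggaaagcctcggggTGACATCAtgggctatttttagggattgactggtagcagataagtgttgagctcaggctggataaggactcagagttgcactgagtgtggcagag
Junb: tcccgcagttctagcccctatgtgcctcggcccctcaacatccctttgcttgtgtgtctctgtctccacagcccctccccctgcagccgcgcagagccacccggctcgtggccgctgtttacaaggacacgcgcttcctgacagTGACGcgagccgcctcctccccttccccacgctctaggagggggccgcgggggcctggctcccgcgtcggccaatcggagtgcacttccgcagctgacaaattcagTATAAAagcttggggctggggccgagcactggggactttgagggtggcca
Dusp1: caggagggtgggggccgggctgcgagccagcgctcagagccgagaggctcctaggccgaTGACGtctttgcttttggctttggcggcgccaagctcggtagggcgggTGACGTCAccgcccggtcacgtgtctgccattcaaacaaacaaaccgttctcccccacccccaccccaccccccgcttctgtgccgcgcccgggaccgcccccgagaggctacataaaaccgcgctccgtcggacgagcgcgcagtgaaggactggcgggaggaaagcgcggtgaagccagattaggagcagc

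Fos held 2 copies of the CRE core, the nearer one beginning 66 bases before the start, and the TATA box beginning 33 bases before it. Jun held TGACATCA at 45 bases before its start. Junb held a CRE core upstream and TATAAA at the start that RefSeq gives. GENCODE M21 begins Junb farther downstream, at position 84978718, so TATAAA lies upstream of that start. Dusp1 held the full CRE and, farther upstream, a further core at 191 bases before its start. Searched on both strands, the core stood in 5 of the 8 windows (Fos, Fosb, Junb, Atf3 and Dusp1), against 20.8% of 32851 promoters of the same length. The full CRE stood in 1 of 8, against 1.79%, the TGACATCA element in 1 of 8, against 3.62%, and TATAAA in 2 of 8, against 13.6%. The TGACATCA element was searched as an element of Jun and its 1 window is that of Jun, so its count says nothing about the set. The CArG box, the core of the serum response element, stood in none of the 8 windows, against 1.63% of all promoters. The AP-1 letters TGANTCA likewise stood in none, against 7.81%. A site farther upstream than the window would be missed, and Egr1 and Ier2 had no window. The absence of matches therefore does not show that these genes lack either element. The Jund window lies wholly upstream of the gene as GENCODE M21 places it, since the annotated starts differ. For Fosb, Fosl2, Junb, Atf3 and Dusp1 the RefSeq start also differs from where the GENCODE M21 gene begins. Only Fos and Jun have the same start in both, and all distances here are from the RefSeq start. These are matches of letters in a short window and say nothing about which factor was bound.

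Of the Fos family genes among the 10, Fosl2 was found in the most cells and Fosb in the fewest. Fos (chromosome 12, 85473890 to 85477273, GRCm38), the founding member, which binds DNA only when paired with a Jun protein, ran over cells from 0 through a median of 17.6 to a highest value of 839 CPM, with a mean of 79.2 ± 131.9 CPM (SD over cells). The share of cells at 10 CPM or more was 60.1% (exact Clopper-Pearson 95% interval 52.7% to 67.2%), and lay above 3 times the expected stray reads in 39.4%. The distribution was long-tailed: the 19 highest cells held 51.8% of the summed Fos CPM. Fosl2 (chromosome 5, 32135801 to 32157842), which encodes the Fos-related protein Fra-2, ran from 0 through a median of 58.04 to 724 CPM, with a mean of 102.4 ± 126.3 CPM. In 81.9% of cells (75.7% to 87.1%) it was at 10 CPM, and in 54.3% above the stray level. Fosb (chromosome 7, 19302696 to 19310051), a close relative of Fos, had a median of 0 CPM, a highest value of 350.5 CPM and a mean of 5.67 ± 30.3 CPM. It reached 10 CPM in 14 cells, or 7.45% (4.13% to 12.2%), with 13.3% above the stray level, and its 19 highest cells held 92.97% of its summed CPM. The share above the stray level exceeds that at 10 CPM because it counts any number of reads past a very low expected value.

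All 3 Jun genes were widely found, Junb in the most cells. Junb (chromosome 8, 84974484 to 84978718) ran from 0 through a median of 99.4 to 862 CPM, with a mean of 136.3 ± 136.7 CPM. In all, 88.3% of cells (82.8% to 92.5%) had it at 10 CPM, and 62.8% above the stray level. Jun (chromosome 4, 95049034 to 95052222), the main partner of Fos, ran from 0 through a median of 32.9 to 1118 CPM, with a mean of 92.2 ± 145.9 CPM. Its share of cells at 10 CPM was 70.2% (63.1% to 76.6%), and above the stray level 46.8%. Jund (chromosome 8, 70698949 to 70700616), known for steady rather than inducible transcription, reached 10 CPM in 70.7% of cells (63.7% to 77.1%), with 60.6% above the stray level. Its level was lower and narrower, from 0 through a median of 21.1 to 191 CPM, with a mean of 29.3 ± 29.7 CPM. Jun and Jund were thus at 10 CPM in nearly the same share of cells, while 53 cells reached 100 CPM of Jun and 5 cells reached 100 CPM of Jund.

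Among the other 4 genes, Ier2 was present in most cells and Atf3, Egr1 and Dusp1 reached 10 CPM in a minority. Ier2 (chromosome 8, 84661331 to 84662852), a small nuclear protein of the immediate early response, ran from 0 through a median of 123.8 to 849 CPM, with a mean of 159.1 ± 152.1 CPM. It was at 10 CPM in 91.5% of cells (86.5% to 95.1%), with 62.2% above the stray level. Egr1 (chromosome 18, 34859823 to 34864984), a zinc finger transcription factor induced by growth factors, had a median of 3.23 CPM, a highest value of 629 CPM and a mean of 24.9 ± 70.6 CPM. At 10 CPM it was found in 49 cells, or 26.1% (19.9% to 32.95%), with 23.9% above the stray level. Dusp1 (chromosome 17, 26505590 to 26562128), a phosphatase that switches off MAP kinases, had a median of 2.24 CPM, a highest value of 299 CPM and a mean of 19.96 ± 44.98 CPM. The cells at 10 CPM numbered 46, or 24.5% (18.5% to 31.3%), with 23.4% above the stray level. Atf3 (chromosome 1, 191170296 to 191218039), a stress-induced leucine zipper factor that can pair with Jun proteins, had a median of 0 CPM, a highest value of 550.2 CPM and a mean of 7.08 ± 49.01 CPM. It reached 10 CPM in 10 cells, or 5.32% (2.58% to 9.56%), with 6.38% above the stray level, and 97.7% of its summed CPM lay in the 19 highest cells.

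**Figure D1:**
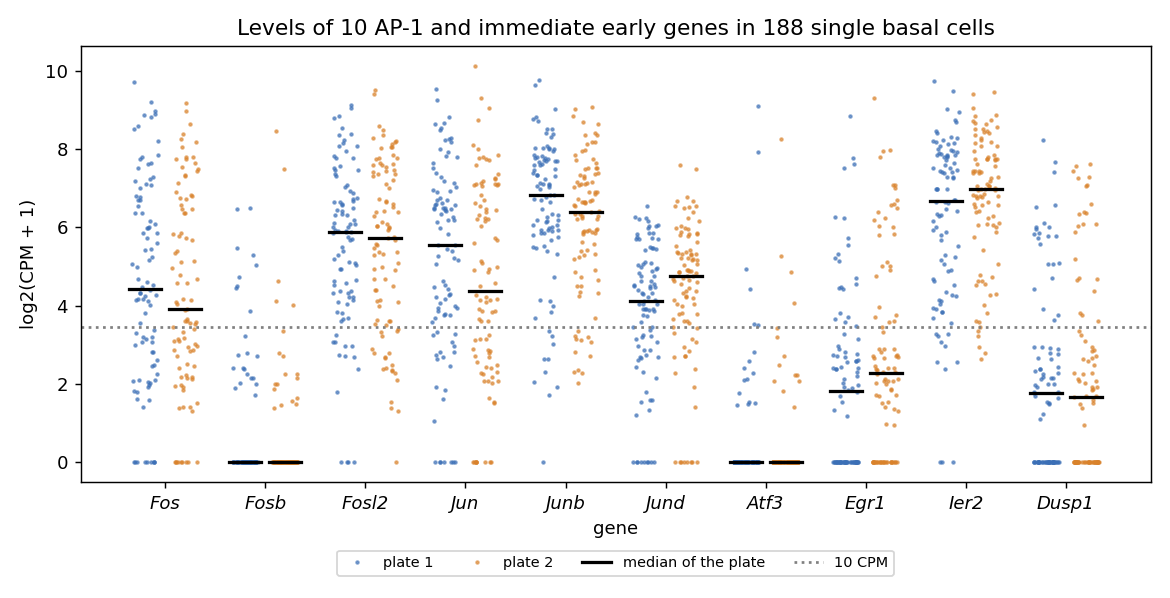
Level of each of the 10 genes in every cell as log2(CPM + 1), by plate, with the plate median as a line and 10 CPM dotted. Ier2, Junb and Fosl2 lie above the dotted line in most cells of both plates, with medians of 123.8, 99.4 and 58.04 CPM over all cells, while Fosb and Atf3 have medians of 0 CPM and a few cells far above.

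Per kb of exon, the levels stood in the order Ier2 (104.6 ± 99.9 CPM per kb), Junb (59.3 ± 59.4), Fos (33.7 ± 56.1), Jun (28.9 ± 45.7), Jund (17.6 ± 17.8), Fosl2 (10.6 ± 13.1), Dusp1 (6.03 ± 13.6), Egr1 (5.55 ± 15.7), Atf3 (3.29 ± 22.8) and Fosb (0.909 ± 4.86). Each neighbouring pair in this order differed by less than the SD over cells of its higher member. Among the 20542 genes with a read and an annotated length, Ier2 lay at the 97.7th percentile, Junb at the 95.8th, Fos at the 92.9th and Fosb at the 46.5th. The order of the CPM values differs, since Fosl2 has 9.68 kb of exon and Ier2 has 1.52 kb. The plates gave similar means for most genes, with the widest relative gaps for Atf3 (9.57 CPM on plate 1 and 4.59 CPM on plate 2) and Egr1 (18.3 and 31.5 CPM). Both gaps were smaller than the SDs over cells within a plate, which were 61.8 and 31.7 CPM for Atf3 and 58.8 and 80.5 CPM for Egr1.

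Jun, Jund and Ier2 have a single exon in GENCODE M21, so their reads cross no splice junction. Counting is not stated to use strand, and 5 of the genes overlap another gene. Reads of Jun cannot be told from those of Junos, which averaged 1.34 CPM, nor reads of Junb in the overlap from those of Prdx2, at 268 CPM. The levels of Junb and Prdx2 had a Spearman rho of 0.0365 over cells, and those of Dusp1 and its neighbour Ergic1 a rho of -0.0520. The genes overlapping Jund and Atf3 that were checked, Gm11175 and Gm24748, had 0 reads.

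A cell had a median of 5 of the 10 genes at 10 CPM, and none had all 10. One cell had 0 of the genes and 3 cells had 9. With reads above 3 times the stray level, the median was 4 genes and the range 0 to 9. With every cell thinned to 75000 reads, where 1 read already exceeds 10 CPM, the median was 6. At 100 CPM, 26 cells had none of the genes, 45 had 1, 46 had 2, 40 had 3, 24 had 4, 3 had 5 and 4 had 6. Cells with some of the 10 genes at 10 CPM were thus the rule, and cells with many of them at a high level were few.

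**Figure D2:**
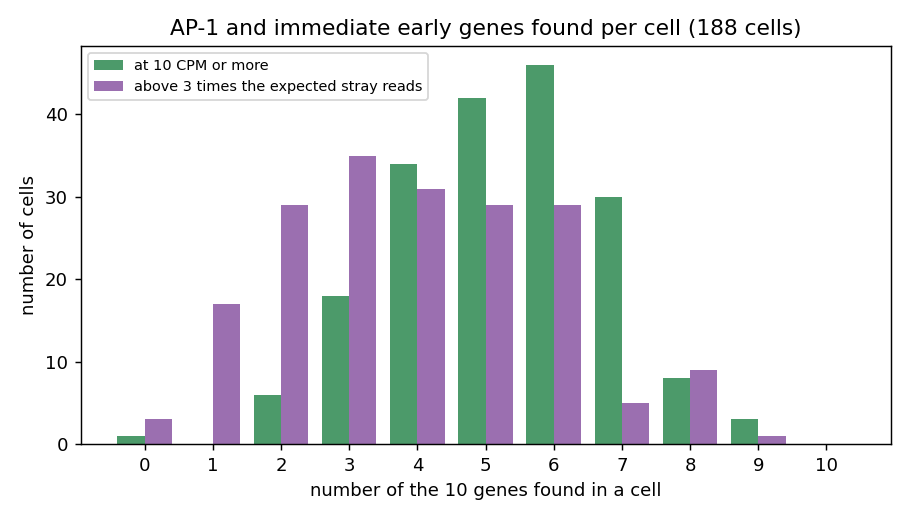
Number of cells (vertical axis) by how many of the 10 genes they held (horizontal axis), at 10 CPM or more and above 3 times the expected stray reads in all cells of both plates. The counts at 10 CPM peak at 6 genes, in 46 cells, and those above the stray level at 3 genes, in 35 cells.

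The highest cells differed in which genes they carried. The cell with the most Fos, in well H06 of plate 1, had 839 CPM of Fos together with 562 CPM of Fosl2, 401 CPM of Jun, 420.2 CPM of Junb and 204 CPM of Dusp1. The cell with the second highest Fos, in well C06 of plate 1, had 585 CPM of Fos, 72.6 CPM of Junb and 8.55 CPM each of Fosl2, Jun and Jund. A high Fos level thus came with high Fosl2 and Jun in 1 of these cells and with little of either in the other.

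The cell with the most Fosb, in well D08 of plate 2, had 350.5 CPM of it, with 304 CPM of Atf3, 249 CPM of Egr1, 458 CPM of Junb and 379 CPM of Ier2, and 2.90 CPM of Fos. The cell with the most Egr1, in well C11 of plate 2, had 629 CPM of Egr1 and 540 CPM of Junb, with 1.61 CPM of Fos and 3.21 CPM of Jun. The cell in well C01 of plate 1 had 458 CPM of Egr1, 789 CPM of Junb, 717 CPM of Ier2 and 498 CPM of Fos. Egr1 was thus high both with and without Fos. The cell with the most Atf3, in well A01 of plate 1, had 550.2 CPM of it, with 363 CPM of Fos and 403 CPM of Jun. At 10 CPM, 8 of the 10 Atf3 cells also had Fos and 9 of the 10 also had Jun, against 60.1% and 70.2% of all cells. Above 3 times the stray reads, 66.7% of the Atf3 cells had Fos and 66.7% had Jun, against 39.4% and 46.8% of all cells.

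The rhos between the genes were low, though their median was above that over all gene pairs. Over the 45 pairs, Spearman's rho of log2(CPM + 1) across all cells had a median of 0.0876 and ran from -0.0698 for Fosb with Fosl2 to 0.275 for Junb with Ier2. Of the 45 pairs, 41 were above 0, and 26 were above 0 on both plates. The median was 0.136 on plate 1 and 0.0730 on plate 2. Over all 43659840 pairs of the 9345 genes found at 10 CPM in at least 10% of cells, the median was 0.0119 and the central 95% ran from -0.138 to 0.163. Fosb and Atf3 do not pass that filter, and the 28 pairs of the other 8 genes had a median of 0.116. Among all pairs, these 28 ran from the 25.7th percentile for Fosl2 with Jund to the 99.95th for Junb with Ier2. The cells share plates, a pooled library and a range of depths, and given total reads and genes detected the median over the 45 pairs was 0.0847.

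**Figure D3:**
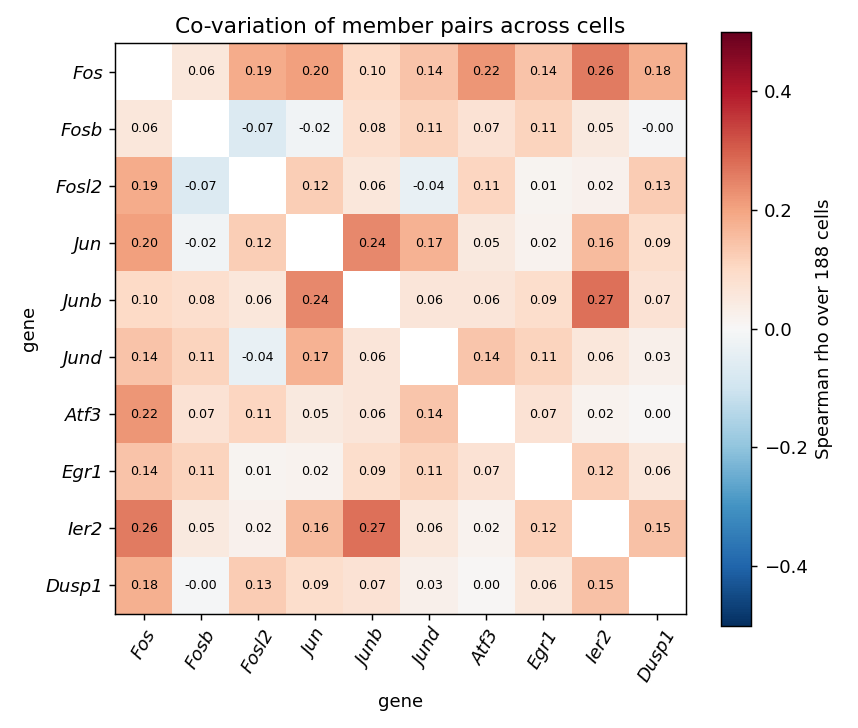
Spearman rho over all cells for each pair of the 10 genes, with colour from -0.5 to 0.5. The highest values are Junb with Ier2 (0.27) and Fos with Ier2 (0.26), and most pairs with Fosb are near 0.

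The highest pairs joined Fos, Ier2, Junb and Jun. Fos and Ier2 had a rho of 0.261 (Pearson r 0.277), with 0.327 on plate 1 and 0.204 on plate 2. They were the 1 pair of the 45 at 0.2 or more on both plates, a limit that 0.205% of all gene pairs reached. Junb and Ier2 had a rho of 0.275 (r 0.245), but 0.477 on plate 1 and 0.0842 on plate 2, so the relation rested mostly on plate 1. Jun and Junb had a rho of 0.239 (0.297 and 0.179 on plates 1 and 2), Fos and Atf3 0.220 (0.194 and 0.253), Fos and Jun 0.205 (0.240 and 0.151) and Fos and Fosl2 0.186 (0.107 and 0.272). Fos and Junb had opposite signs on the plates, with 0.284 on plate 1 and -0.116 on plate 2, and so had Fosl2 and Junb, with 0.324 and -0.1997.

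In counts of cells, 48 cells had 100 CPM of Fos, and 37 of these, or 77.1%, also had 100 CPM of Ier2, against 56.4% of all cells. Those 37 cells were 34.9% of the cells with 100 CPM of Ier2, against 25.5% of all cells with that much Fos. Jun and Junb were both at 100 CPM in 35 cells, 66.04% of the Jun cells and 37.6% of the Junb cells, against 49.5% and 28.2% of all cells. Fos and Jun, the classical AP-1 pair, were both at 100 CPM in 14 cells, 29.2% of the Fos cells and 26.4% of the Jun cells, close to the 28.2% and 25.5% of all cells. At 10 CPM, Fos and Jun were both present in 86 cells, 76.1% of the Fos cells and 65.2% of the Jun cells, against 70.2% and 60.1% of all cells. Above 3 times the stray reads, 59.5% of the Fos cells had Jun and 77.03% had Ier2, against 46.8% and 62.2% of all cells.

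Each gene was also set against the mean z score of the other 9. Fos stood highest, with a rho of 0.406 (r 0.358), and 0.446 and 0.384 on plates 1 and 2. Ier2 followed with 0.301, Jun with 0.272, Junb with 0.252, Jund with 0.201, Atf3 with 0.185, Dusp1 with 0.164, Egr1 with 0.141, Fosl2 with 0.117 and Fosb with 0.0792. For Junb the plates gave 0.425 and 0.0679. The score of all 10 genes had a rho of 0.187 with the mitochondrial share of reads (0.234 and 0.106 on plates 1 and 2), 0.154 with the number of genes detected, 0.0325 with total reads, -0.0605 with the spike-in share and 0.00672 with the expected stray share. The part of these measures in the relations between the genes was not tested beyond the adjusted median above.

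**Figure D4:**
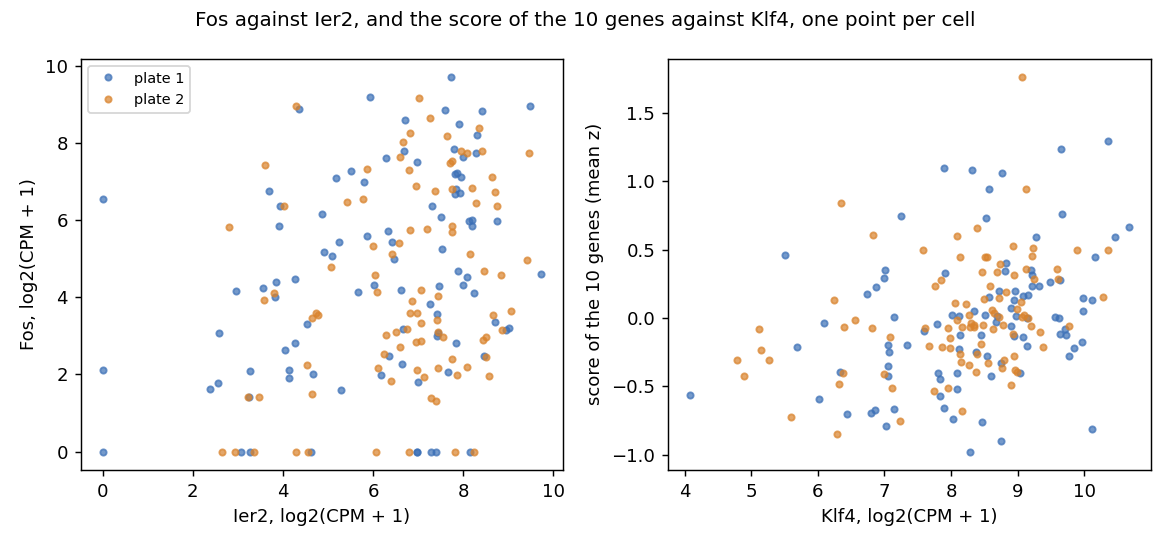
Left, Ier2 against Fos in each cell, both as log2(CPM + 1), by plate, with a rho of 0.261. Right, Klf4 as log2(CPM + 1) against the score of the 10 genes, the mean z score of their log2(CPM + 1), with a rho of 0.380; both clouds are broad.

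Basal keratinocytes begin to differentiate while still in the basal layer, and the study examined that heterogeneity. A score of 12 early differentiation genes, such as Krt10, Krt1 and Krtdap, was therefore compared with each gene; it had a rho of -0.657 with the score of the 14 basal genes. No AP-1 or immediate early gene followed it closely. The rhos were 0.109 for Fos, -0.175 for Fosb, -0.0572 for Fosl2, -0.00212 for Jun, -0.0898 for Junb, 0.0788 for Jund, 0.0372 for Atf3, -0.0676 for Egr1, -0.0837 for Ier2 and -0.0461 for Dusp1. None of the 10 reached 0.3, or fell to -0.3, on both plates; over the 9333 genes tested outside the list, 0.557% reached the upper limit and 0.621% the lower. The median over the 10 genes was -0.0516, against -0.00253 over the 9333 genes, whose central 95% ran from -0.231 to 0.231. With cells scaled to their spike-in reads instead, the median over the 10 genes turned positive, at 0.129, and that over all 9333 genes moved to 0.136, so relative to all genes the 10 stayed close to the middle. Under that scaling 9 of the 10 rhos were above 0, from 0.0100 for Dusp1 to 0.291 for Jund, and Fosb kept a rho of -0.117.

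Among single genes, Fosb was the lowest with the early score over all cells, with -0.131 on plate 1 and -0.210 on plate 2. On plate 1 alone Ier2 was lower, at -0.137. Fosb was also the highest with the basal score, at 0.239 (0.271 and 0.179). Fosb has reads in 42 cells, and at such a low level a weak rho is no finding. Fos had 0.0323 and 0.178 with the early score on plates 1 and 2. Jund had 0.134 and -0.0433, so its sign depended on the plate. With the basal score, Fosl2 had a rho of 0.125, Atf3 0.113, Jun 0.0950, Egr1 0.0852, Junb 0.0695, Dusp1 0.0569, Fos 0.0166, Ier2 -0.0181 and Jund -0.0476. All of these are weak.

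**Figure D5:**
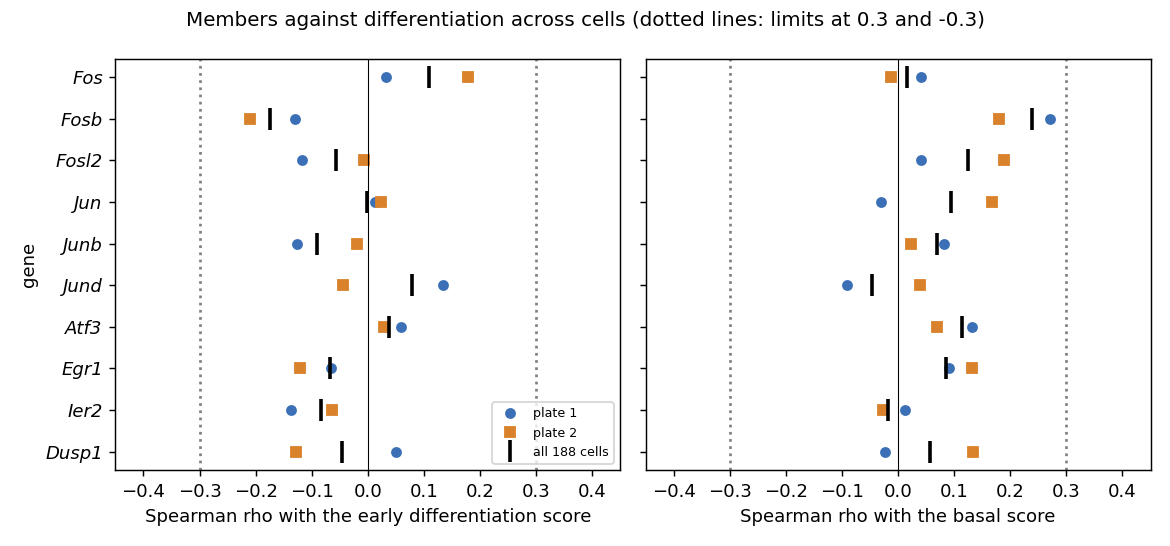
Spearman rho between the early differentiation score and each of the 10 genes, for plate 1 and plate 2 (dots) and for all cells (ticks), with the limits of -0.3 and 0.3 dotted. All dots lie between the limits. Fosb is the lowest over all cells and on plate 2, at -0.210. On plate 1 Ier2 is the lowest, at -0.137, with Fosb at -0.131.

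The score of the 10 genes was set against scores of 11 other gene lists. With CPM, the highest rho was with MAP kinase phosphatases and sprouty proteins, the feedback inhibitors of growth factor signalling, at 0.287 (0.357 and 0.236 on plates 1 and 2). The other immediate early genes came next, with a rho of 0.258 (0.235 and 0.286; r 0.361). The other AP-1 family members and dimer partners had 0.157, the basal list 0.140, heat shock genes 0.116 (0.193 and 0.0277), the upstream kinases and promoter-binding factors 0.111, the wound keratinocyte list 0.0992 (0.165 and 0.0276), late differentiation 0.0799, S phase 0.0611, early differentiation -0.0235 (0.257 with spike-in scaling), and G2 and mitosis -0.0964 (0.0415 with spike-in scaling). With spike-in scaling heat shock stood at 0.351 and the wound list at 0.252, and the order of the first lists changed, with the other immediate early genes at 0.382 and the phosphatases and sprouty proteins at 0.321. Without the filter on low values these were 0.267 and 0.246. Spike-in scaling also moved the median rho of all 9337 genes tested with the score, to 0.111 against 0.0222 with CPM.

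Of the list genes that passed the filter of 10 CPM in at least 10% of cells, 3 had a rho of at least 0.2 with the score on both plates and 0 had a rho of at most -0.2, against 0.428% and 0.118% of the 9337 genes tested. The 3 were Klf4, Col17a1 and Dst. Klf4, a Kruppel-like transcription factor needed for the skin barrier and itself an immediate early gene, had 410 ± 292 CPM (SD over cells), from 15.9 through a median of 358 to 1622 CPM. Its rho with the score was 0.380 (r 0.341; 0.361 and 0.402 on plates 1 and 2), the highest of all 9337 genes when ranked by the plate nearer to 0. Given total reads and genes detected, its rho was 0.389. Gene by gene, Klf4 had a rho of 0.254 with Fos, 0.246 with Jun, 0.205 with Dusp1, 0.188 with Junb, 0.177 with Ier2 and 0.0331 with Egr1. Col17a1, a collagen of the hemidesmosome, averaged 2365 ± 1021 CPM and had a rho of 0.289 (0.346 and 0.233). Dst, the hemidesmosome plakin dystonin, averaged 1675 ± 777 CPM and had a rho of 0.264 (0.2997 and 0.242).

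Within the other immediate early genes, the most abundant after Klf4 were Nfkbia, the inhibitor of NF-kappaB, at 211 ± 278 CPM, Myc at 163.4 ± 144.4 CPM and Gadd45b at 143.6 ± 159.2 CPM. Their rhos with the score were 0.0427, 0.110 and 0.110, and that of Gadd45b differed in sign between plates, at 0.274 and -0.0867. Of the AP-1 dimer partners, Atf4 averaged 219 ± 177.4 CPM with a rho of 0.128, Maf 196 ± 153.3 CPM with 0.223 and Nfe2l2 80.8 ± 105.6 CPM with 0.0715. Fosl1, the remaining Fos family gene, averaged 6.81 ± 45.2 CPM and reached 10 CPM in 4.26% of cells, with 10.1% above the stray level.

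Of the feedback genes, Spred1 averaged 24.7 ± 41.95 CPM, Spry2 23.5 ± 39.2 CPM, Spry1 15.1 ± 46.2 CPM and Dusp8 14.8 ± 56.5 CPM, with rhos of -0.0117, 0.0683, 0.161 and 0.174. Of these 4, Dusp8 and Spry1 stood nearest to the score. Upstream, the receptor Egfr averaged 122.03 ± 124.2 CPM with a rho of -0.0749, Rela 112.4 ± 124.7 CPM with 0.230 and Elk4, a partner of serum response factor, 94.2 ± 103.8 CPM with 0.0898. Rela had 0.284 on plate 1 and 0.160 on plate 2.

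Of the heat shock genes, Hsp90ab1 averaged 1984 ± 582 CPM with a rho of 0.114, Dnajb1 178.9 ± 158.2 CPM with 0.0723, Hsp90aa1 153.5 ± 97.8 CPM with 0.0717 and Hspe1 113.8 ± 66.4 CPM with 0.0627. Krt16, Krt17 and Krt6a, keratins of wounded epidermis, averaged 335 ± 841, 150.05 ± 559 and 137.3 ± 428 CPM, with rhos of 0.0216, 0.0486 and 0.0118, and Hbegf, an EGF receptor ligand, 24.9 ± 89.1 CPM with 0.103. Krt14 and Krt5, the basal keratins, had rhos of -0.116 and 0.0380, and Krt15 had 0.174. Krtdap, Krt10, Calm4 and Dmkn, the most abundant early differentiation genes, had rhos of -0.103, -0.0202, -0.0605 and -0.0460. In late differentiation, Tgm3, Casp14, Sprr1b and Lor had 0.0303, 0.0363, 0.1002 and -0.0750. In the cell cycle lists, Mcm6, Pcna, Mcm4 and Mcm5 had 0.0442, -0.0506, 0.131 and 0.0194, and Mki67, Top2a, Cdc20 and Cenpa had -0.0504, -0.0363, 0.0497 and -0.0384.

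Over all genes, those nearest to the score after Klf4 were Aff3 (rho 0.323), Slc6a6, a taurine transporter (0.333), Ifitm10 (0.286), Vps37c (0.293), the ubiquitin-activating enzyme Uba1 (0.309), N4bp2l2 (0.298), the nuclear long noncoding RNA Neat1 (0.281), Ggnbp2 (0.251) and Gm26917 (0.283). The lowest 5 were the ribosomal protein gene Rps2 (-0.248), Lrrc28 (-0.251), Chchd6 (-0.232), Ttc4 (-0.242) and the peroxiredoxin Prdx1 (-0.273). These are the ends of a ranking of 9337 genes and are given as a description of these cells. They carry no statement of shared function or control.

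For single genes, the nearest outside the 10, ranked in the same way, were Gadd45a (rho 0.287) and Rpap1 (0.287) for Fos, Lrrc45 (0.263) and Mindy2 (0.253) for Fosl2, and Fam216a (0.274) and Tet3 (0.266) for Jun. They were Fam83g (0.285) and Pde4dip (0.293) for Junb, Tanc2 (0.284) and Lipt1 (0.240) for Jund, and E430018J23Rik (0.331) and Ncoa1 (0.283) for Egr1. For Ier2 they were Cysltr1 (0.327) and Aldh2 (0.212), and for Dusp1 Klf9 (0.276) and Sp2 (0.233). Gadd45a, a stress-induced growth arrest gene, was the only one of these 16 genes on the list of other immediate early genes.

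The squared coefficient of variation of the 5 most abundant of the genes by CPM was 0.969 to 1.50 times that of spike-in RNA of the same mean on the plate with the smaller ratio. Spike-ins are added in equal amount to every well, and their squared coefficient of variation at a given mean was taken as a yardstick of technical spread. It is not a floor for genes, since the median smaller ratio over the 3685 genes compared was 0.840. A ratio near 1 therefore does not show that a gene varied little beyond technical spread. At a mean of at least 50 CPM, 5 of the genes could be compared, and 0 of these had a squared coefficient of variation that was 2 or more times the trend of the spike-ins on each plate, a limit that 2.63% of 3685 genes reached. The smaller of the ratios on the plates was 1.50 for Fos, 1.40 for Jun, 1.10 for Ier2, 1.09 for Fosl2 and 0.969 for Junb, with a median of 1.10 against 0.840 over the 3685 genes. Fos lay at the 94.6th percentile of these genes and Jun at the 93.4th. On single plates, Jun reached a ratio of 2.38 on plate 2 and Fos 1.88 on plate 1. Jund, at a mean of 29.3 CPM and below the limit for this comparison, had the smallest ratio of the 10, 0.155.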

How the data were processed

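Gene counts were deposited by the authors as raw whole-number reads per gene and cell; per the submitters' processing notes, HTSeq 0.6.0, STAR 2.5.2b and cutadapt 1.13 were used with GRCm38. The table held 49585 gene rows and 92 spike-in rows, and 49326 identifiers matched a symbol. Counts have no molecular identifiers. Intervals on shares of cells cover the counting error of cells only, taken as independent draws. One cell was sorted per well and no doublet caller was run.

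CPM left out spike-ins. Scores average, over those genes of a list that 5% or more of cells held at 10 CPM, the z-scaled log2(CPM + 1), without the gene compared. Genes entered counts at 10 CPM in at least 10% of cells. Stray reads were estimated from 282 genes expressed in few wells. The spike-in trend was a1/mean + a0 per plate. The counts with a score, the stray-read rates and the spike-in trend were tested on simulated data. Python 3.11.15, scipy 1.17.1 and, for size factors, scran 1.30.0 in R 4.3.3 were used.

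The 10 genes and the lists were chosen with earlier results of these data known. Named outside the 10 were the 10 highest and 5 lowest genes with the score, 2 nearest per tested gene, and the 4 most abundant of each list with any past its limit, of which 2 are not reported here; Fosl1 was added after its values were seen. The lists were basal keratinocyte, early and late differentiation, other AP-1 family, other immediate early, MAP kinase phosphatase and sprouty, upstream kinase, heat shock, wound keratinocyte, G2 and mitosis, and S phase genes. Alternatives were other scalings, thinning, stray-read subtraction, single plates and other limits. Protein sequences were not used here.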

Additional observations from a re-analysis of the deposited data

How the results depend on the processing

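Of the values that answer a comparison, 85 alternative values kept their side or size and 15 moved; for single genes 47 moved. Some rhos near 0 changed sign: with spike-in scaling the rho with the early score was 0.183 for Junb, 0.147 for Ier2, 0.115 for Fosl2 and 0.0460 for Egr1, all below 0 with CPM. Genes found in at least 50% of cells numbered 8 at 1 read or more (Egr1 in 63.3% and Dusp1 in 57.4%), 6 at 10 CPM, 3 at 50 CPM and 4 above the stray level. Pairs of the 10 genes at a rho of 0.2 on both plates numbered 1 with CPM, 3 with spike-in scaling and 2 with thinned reads. With spike-in scaling the median rho with the early differentiation score was 0.129, and the rho of the score of the 10 genes was 0.276 with the basal list, 0.257 with early differentiation, 0.289 with the other AP-1 genes, 0.382 with the other immediate early genes, 0.273 with the upstream list, 0.351 with heat shock, 0.252 with the wound list, 0.0415 with G2 and mitosis and 0.219 with S phase. Spike-in scaling also raised the median over all gene pairs, to 0.0649 against 0.0119 with CPM, and that over pairs of the 10 genes, to 0.126 against 0.0876. At a ratio of 1.5 to the spike-in trend, 1 of the 5 genes compared was counted in place of 0, against 5.43% of all genes, and at a limit of 0.3 for the list genes, 1 in place of 3. Subtracting the expected stray reads gave a median of 0.0937 over the 45 pairs, and Klf4 a rho of 0.358 with the score. With thinned reads that rho was 0.269. Stray rates with a level per gene removed, chosen after seeing the data, were 27.9, 10.2 and 2.96 per 10000 reads. No paired analysis was possible because all cells form 1 group. Only 22.3% and 16.5% of cells had a read of Fosb and Atf3, and at this depth a low level and no expression cannot be told apart in the rest.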
